A study of Mus musculus with 2 samples.

Results

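The 10 genes described here, Hif1a, Hk1, Hk2, Pfkp, Pfkfb3, Aldoa, Pkm, Ldha, Ero1l and Ndrg1, are a set of glycolysis and hypoxia genes chosen by symbol from the 32285 genes of the deposited count tables. They were chosen with earlier results of these data known and were followed across 5 classes of lymphocytes and 2 libraries. In the library given IL-23, Hk1, Ldha, Ero1l, Ndrg1 and Hif1a stood between 1.63 and 2.18 times as high as in the unstimulated library when all kept cells were pooled. Hk2 stood 1.87-fold lower, so that the pair of hexokinase genes lay on opposite sides. The contrast between the hexokinases was wide in the CD3-negative cells and in gamma delta T cells and narrow in alpha beta T cells.

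Glycolysis splits glucose to pyruvate in the cytosol and yields ATP without oxygen, and activated lymphocytes lean on it for energy and for building blocks. Hexokinase traps glucose in the cell as glucose 6-phosphate, phosphofructokinase commits the sugar to the pathway, and lactate dehydrogenase turns the pyruvate at its end into lactate and so restores the NAD+ that the pathway needs. HIF-1alpha, the oxygen-regulated subunit of the factor HIF-1, is destroyed when oxygen is plentiful and otherwise drives many of these genes, and in immune cells its gene is also transcribed more after cytokine signals.

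The cells were live eGFP+ cells sorted from the small intestine of Il23r-eGFP mice, a reporter genotype that both groups share and in which fluorescence marks cells expressing the IL-23 receptor. The cells of one group were labelled as treated with IL-23 and came from cells given recombinant mouse IL-23 for 2 hours, and the other cells were labelled unstimulated. Each group was 1 library of 10x Genomics droplets, which count unique molecular identifiers (UMIs, 1 per captured transcript). Age, sex and the number of animals were not given in the sources used here. The protocol text of both libraries mentions the stimulation, so that the unstimulated group rests on its treatment label, and whether those cells were incubated as long is not stated. IL-23 and incubation therefore cannot be told apart, and with 1 library per group no difference below has a test or a replicate check.

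The IL-23 stimulated library held 9251 kept cells with a median of 6087 UMIs, and the unstimulated library held 10790 kept cells with a median of 4928 UMIs. Mitochondrial genes took 3.25% and 2.64% of their UMIs, and the cytokine gene Il22 took 2.57% and 0.553%. All 10 listed markers of group 3 innate lymphoid cells (ILC3s), Il7r and Il23r among them, were detected in every class of both libraries. The sort itself was for expression of Il23r. In the stimulated library Il23r was at 266 CPM in gamma delta T cells, 201 CPM in Ncr1+ cells and 148 CPM in alpha beta T cells. Detection of these genes therefore does not part ILC3s from T cells. Of other cell types, markers of B and plasma cells summed to 329 CPM in the stimulated and 1037 CPM in the unstimulated library, and unevenly: to 7.97 and 1839 CPM in the Ncr1+ class and to 1731 and 34.6 CPM in the Ccr6+ class. When the cells with at least 20 UMIs of Igkc and Jchain were left out, 9244 and 10780 cells remained and the counts of members in every class stayed as given below. The 7 macrophage and dendritic cell markers summed to 7.24 and 9.72 CPM, the 5 epithelial markers to 10.4 and 7.50 CPM and the 7 dissociation stress genes to 1084 and 1040 CPM. Mast cell, neutrophil and red cell markers summed to at most 25.7 CPM over all kept cells of a library, with Mcpt1 and Fcer1a at 0. Of the 4 stromal and endothelial markers, which summed to 81.7 and 71.4 CPM, Pdgfra was at 0 in the stimulated library.

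Classes were set by the transcripts of each cell. CD3-negative cells had no UMI of Cd3e, Cd3d or Cd3g, the genes of CD3 chains, and were parted into cells with a UMI of Ncr1 (1258 stimulated and 1052 unstimulated cells), of Ccr6 (1464 and 1535) or of neither gene (5802 and 7440). Ncr1 encodes the receptor NKp46, and Ccr6 a chemokine receptor of the lymphoid tissue inducer-like kind of ILC3. Cells with Cd3e and Trdc are called gamma delta T cells (221 and 232), and cells with Cd3e and Trac alpha beta T cells (99 and 163). A class defined by detection holds the deeper cells: the median was 7286.5 and 5925.5 UMIs in Ncr1+ cells, against 5698.5 and 4675.5 UMIs in the cells with neither marker. Cells with a UMI of both Ncr1 and Ccr6 (59 and 48) were left out of the 3 groups. The class with neither marker also holds cells whose Ncr1 or Ccr6 transcript was missed. In the same way, a T cell whose CD3 transcripts were missed would count as CD3-negative. The cells with neither marker held 81 and 168 Trdc UMIs and 54 and 70 Trac UMIs, and whether these came from T cells was not tested. Cells with Cd3d or Cd3g but no Cd3e (238 and 220) are in none of the 5 classes. Levels are given as CPM, the UMIs of a gene per 1000000 UMIs of its class, with exact Poisson 95% intervals, which like all intervals here cover counting error only.

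Sequence upstream of the starts of both hexokinase genes and of Ero1l, and of start 1 of Ldha, is printed here because these genes carry the contrast. RefSeq (GRCm38.p6) gave a start for 9 of the 10 genes, with 15 starts in all. The 250 bases before each start were searched on both strands for ACGTG and GCGTG, the core letters of the hypoxia response element that HIF-1 binds, and for TTCNNNGAA, the spaced palindrome of the STAT factors. Capitals mark a match to ACGTG or GCGTG on either strand, so that CACGT and CACGC are matches on the other strand. All 5 sequences run 5′ to 3′ in the direction of transcription. Hk1 has starts 1 and 2 at chr10:62379909-62380158 and chr10:62340422-62340671 (both minus strand), Hk2 at chr6:82774455-82774704 (minus), Ldha start 1 at chr7:46845554-46845803 (plus) and Ero1l, named Ero1a by RefSeq, at chr14:45318573-45318822 (minus).
Hk1 start 1: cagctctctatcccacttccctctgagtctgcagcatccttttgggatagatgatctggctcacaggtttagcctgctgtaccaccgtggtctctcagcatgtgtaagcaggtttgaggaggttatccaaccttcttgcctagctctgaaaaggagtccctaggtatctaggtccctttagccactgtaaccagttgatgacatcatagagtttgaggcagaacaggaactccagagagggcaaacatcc
Hk1 start 2: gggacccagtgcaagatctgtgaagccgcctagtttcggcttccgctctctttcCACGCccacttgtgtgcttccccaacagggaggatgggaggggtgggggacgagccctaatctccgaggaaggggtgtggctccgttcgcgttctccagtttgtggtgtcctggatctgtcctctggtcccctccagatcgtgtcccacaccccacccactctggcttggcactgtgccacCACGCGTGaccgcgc
Hk2: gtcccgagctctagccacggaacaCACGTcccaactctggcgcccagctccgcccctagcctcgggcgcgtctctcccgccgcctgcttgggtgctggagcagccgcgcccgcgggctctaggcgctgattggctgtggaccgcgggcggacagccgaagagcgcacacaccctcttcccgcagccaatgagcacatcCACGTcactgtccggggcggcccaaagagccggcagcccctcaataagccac
Ldha start 1: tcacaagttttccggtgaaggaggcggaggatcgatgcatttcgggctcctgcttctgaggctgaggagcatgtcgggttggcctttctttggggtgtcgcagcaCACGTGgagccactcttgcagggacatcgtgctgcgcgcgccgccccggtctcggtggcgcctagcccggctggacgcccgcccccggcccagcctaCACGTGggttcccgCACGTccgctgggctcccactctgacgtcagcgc
Ero1l: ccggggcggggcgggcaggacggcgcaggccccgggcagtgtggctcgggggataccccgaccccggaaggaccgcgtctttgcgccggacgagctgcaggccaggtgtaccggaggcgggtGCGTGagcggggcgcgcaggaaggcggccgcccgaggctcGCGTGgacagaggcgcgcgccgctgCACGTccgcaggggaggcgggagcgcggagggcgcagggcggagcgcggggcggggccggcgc
The hexokinase windows differ in these letters. The Hk2 window holds 2 matches to ACGTG and 0 to GCGTG, Hk1 start 1 holds 0 of either, and Hk1 start 2 holds 3 matches to GCGTG and 0 to ACGTG. Ldha start 1 holds 5 matches to ACGTG, of which overlapping pairs form the palindrome CACGTG in 2 places. Ldha start 2, which is not printed, holds 0 matches to ACGTG and 1 to GCGTG. The Ero1l window holds 1 match to ACGTG and 2 to GCGTG. A match to ACGTG was found in 9 of the 15 windows of the members, against 16.6% of all 32851 RefSeq windows of this length, and GCGTG in 5 windows, against 28.2%. The windows belong to 9 genes, of which 7 hold ACGTG, and are not independent: a pair of Aldoa windows overlap and count the same match in each. TTCNNNGAA was found in 0 of the 15 windows and in 7.02% of all windows. The genes were chosen as glycolysis and hypoxia genes, and the shares over all windows were not matched for G and C content. That content ran from 49.6% at Hk1 start 1 to 80.8% at Ero1l, and ACGTG and GCGTG both hold the pair CG. A match is a run of letters, and neither binding nor use of a start was measured here.

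Across all kept cells, 5 of the 10 genes were at least 1.5-fold higher in the stimulated library, a size reached by 4% of the 7049 genes measured, and 1 was at least 1.5-fold lower, reached by 3.53%. To count as measured, a gene needed 10 CPM in the library where it was higher and 20 UMIs in all, and 1.5-fold is a size and not a test. The median log2 ratio of the 10 genes was 0.59, beside -0.11 for all measured genes. Because the 10 genes were chosen with earlier results of these data known, the values of all measured genes give scale only. They do not test the set, here or in the classes below. Scaling by the trimmed mean of M values (TMM) in place of the class total adds 0.12 to every log2 ratio of all kept cells. All 10 genes were measured in every class, but Ndrg1 in the Ccr6+ class and Hk1 and Ndrg1 in the cells with neither marker reached 10 CPM in the stimulated library alone and had to differ to count.

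**Figure D1:**
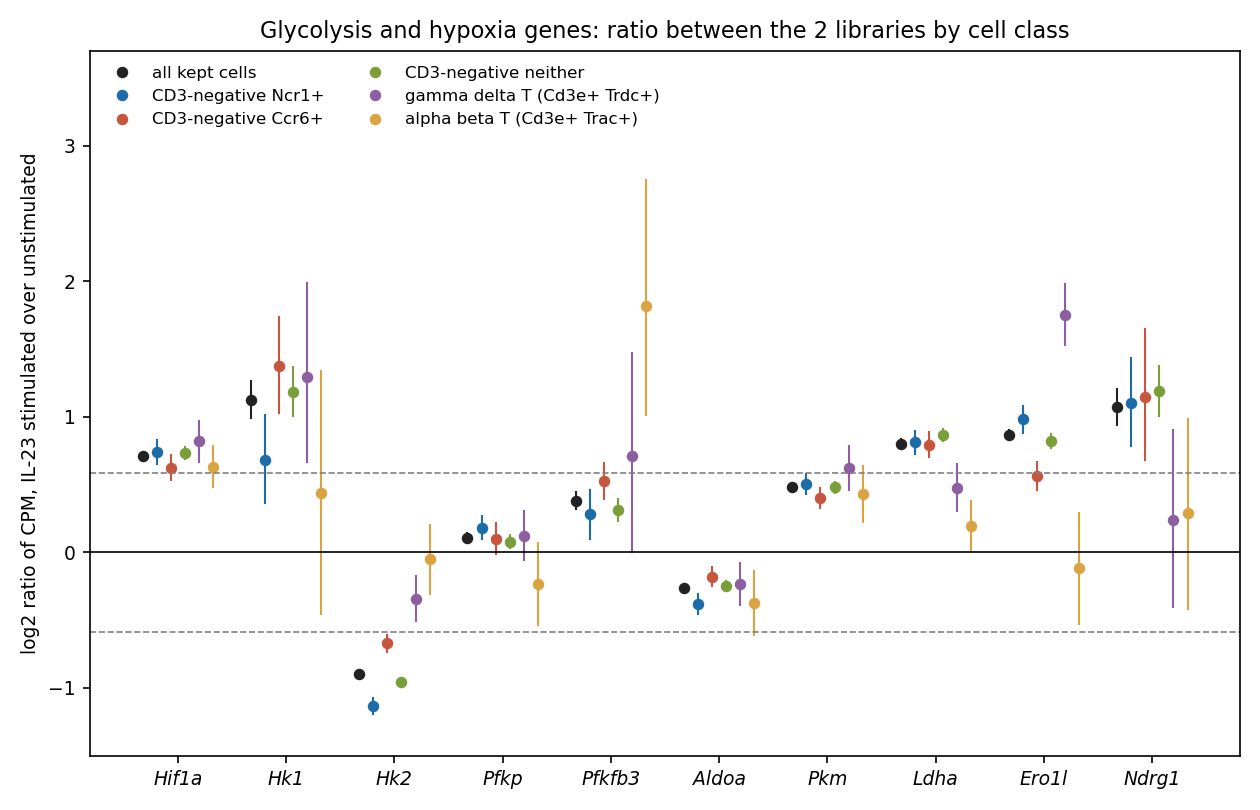
Log2 ratio of CPM, IL-23 stimulated over unstimulated (vertical axis), for each of the 10 genes (horizontal axis) in all kept cells and 5 cell classes (colours). Bars are 95% intervals of counting error and dashed lines mark 1.5-fold either way; Hk2 lies at -1.14 in Ncr1+ cells and at -0.05 in alpha beta T cells, and Ero1l at 1.75 in gamma delta T cells.

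Hif1a (ENSMUSG00000021109, GRCm38 chr12:73901375-73947530), the gene of the oxygen-regulated HIF-1 subunit, was higher in the stimulated library in each of the 5 classes. Its level in all kept cells was 329.7 CPM (325 to 334) in stimulated and 201.8 CPM (198 to 205) in unstimulated cells, a log2 ratio of 0.71. Alpha beta T cells had the most of it, with 853 CPM (795 to 914) stimulated and 550.1 CPM (510.2 to 592) unstimulated. Gamma delta T cells followed with 610.4 CPM (574 to 648) and 346 CPM (317.5 to 376). Among CD3-negative cells, the order was Ncr1+ (346 and 208 CPM), neither (308 and 185 CPM) and Ccr6+ (256 and 166 CPM). This order of the 5 classes was the same in both libraries, and the counting intervals of neighbours did not overlap. The log2 ratios lay between 0.63 in Ccr6+ and alpha beta T cells and 0.82 in gamma delta T cells. The ratio did not reach 1.5-fold in all kept cells at a log2 ratio of 0.57 among those under 2% mitochondrial UMIs, a bin chosen after the data had been seen, or in Ccr6+ cells at 0.55 when classes needed 2 UMIs of the marker. In alpha beta T cells it was 0.54 with that class rule, 0.54 without the 5% of cells with the most UMIs and 0.57 as the mean of per-cell CPM. After each cell was thinned to 3000 UMIs, which left out 620 stimulated and 805 unstimulated cells with fewer, 53.0% of stimulated and 39.5% of unstimulated cells had a Hif1a UMI, and as counted 70.5% and 53.3%. No cell type of the gut is known to lack the genes of glycolysis, so free RNA in the droplets has no class that would show its level.

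Hk1 (ENSMUSG00000037012, GRCm38 chr10:62268855-62379908) encodes the hexokinase that most tissues express. In all kept cells it had 1511 UMIs and 24.6 CPM (23.4 to 25.9) stimulated, against 656 UMIs and 11.3 CPM (10.4 to 12.2) unstimulated, a log2 ratio of 1.13. Ccr6+ cells had 26.2 CPM stimulated and 10.1 CPM unstimulated (log2 ratio 1.37), cells with neither marker had 22.2 and 9.79 CPM (1.18), and Ncr1+ cells had 26.95 and 16.7 CPM (0.68). The lowest of these ratios, in Ncr1+ cells, came with the highest unstimulated level of the CD3-negative classes, and it was 0.45 when classes needed 2 UMIs of the marker. Gamma delta T cells had 43.6 CPM (34.4 to 54.6, 76 UMIs) stimulated and 17.6 CPM (11.7 to 25.4, 28 UMIs) unstimulated. Theirs was the highest Hk1 level of the 5 stimulated classes, with an interval that overlaps that of alpha beta T cells (15.5 to 36.7). Alpha beta T cells had 24.4 and 18.0 CPM from 23 UMIs in each library, and the interval of their log2 ratio, -0.46 to 1.34, spans 0.

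Hk2 (ENSMUSG00000000628, GRCm38 chr6:82725025-82774454) encodes the inducible hexokinase of muscle, fat and activated immune cells. All kept cells held 20737 UMIs at 338 CPM (333 to 343) in the stimulated library and 36658 UMIs at 630.4 CPM (624 to 637) in the unstimulated library, a log2 ratio of -0.90. Ncr1+ cells were at 400.2 CPM (388 to 413) stimulated, against 879 CPM (857 to 902) unstimulated, which is 2.20-fold lower. Cells with neither marker were at 330.3 and 642 CPM, 1.94-fold lower. Ccr6+ cells were at 322 and 513 CPM, 1.59-fold lower. Both T cell classes differed less between the libraries: gamma delta T cells were at 326 CPM (299.6 to 354) and 413 CPM (382 to 446), and alpha beta T cells at 229.5 CPM (199.9 to 262) and 238 CPM (212 to 266). The 1.59-fold value of Ccr6+ cells was not reached under TMM scaling, at a log2 ratio of -0.56, or with classes from 2 marker UMIs, at -0.50. The log2 ratio of alpha beta T cells, -0.05, was 0.02 under TMM scaling, 0.06 as the mean of per-cell CPM and 0.17 without the 5% of cells with the most UMIs.

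In the unstimulated library Hk2 was graded by class. From high to low the order was Ncr1+, neither, Ccr6+, gamma delta T and alpha beta T, with no overlap of counting intervals, and alpha beta T cells were 3.69-fold lower than Ncr1+ cells. In the stimulated library the cells with neither marker, gamma delta T cells and Ccr6+ cells had overlapping intervals between 299.6 and 354 CPM, and alpha beta T cells were 1.74-fold lower than Ncr1+ cells. Likewise, gamma delta T cells were 1.23-fold lower than Ncr1+ cells in the stimulated library and 2.13-fold lower in the unstimulated library. Thus the 5 classes lay closer together in the library in which Hk2 was lower.

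**Figure D2:**
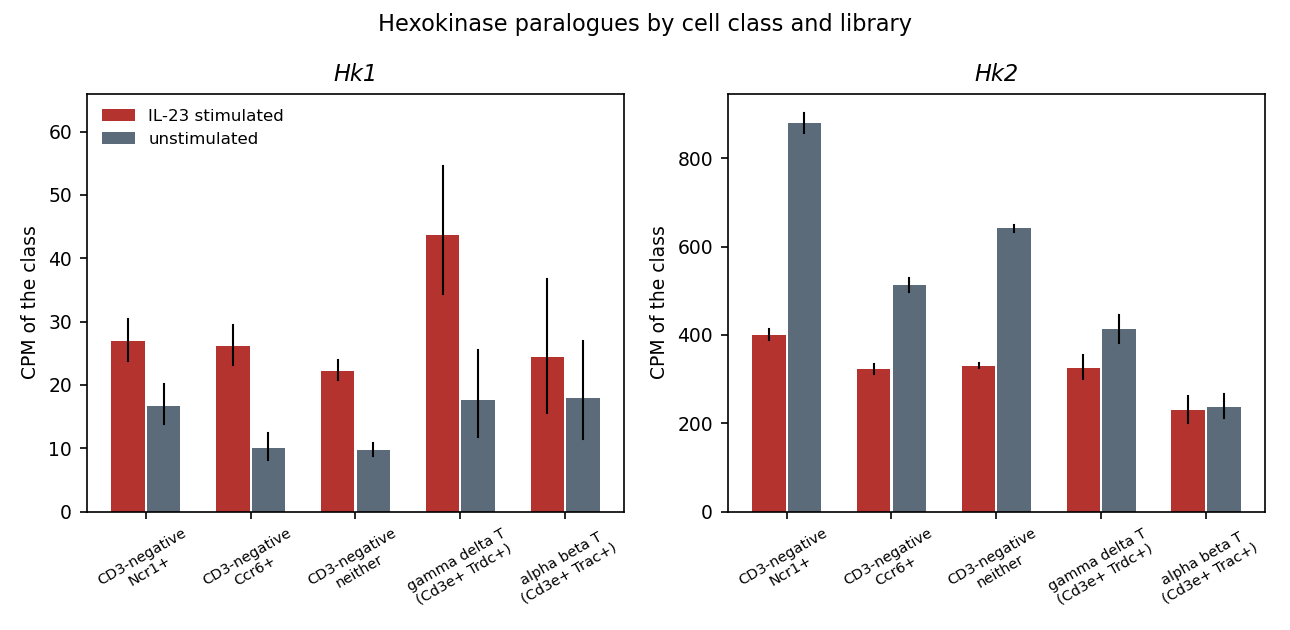
CPM of Hk1 (left) and Hk2 (right) in 5 cell classes, with the IL-23 stimulated library in red beside the unstimulated library in grey; the black lines are exact Poisson 95% intervals of counting error. The panels have different vertical scales: Hk2 spans 238 to 879 CPM over the unstimulated classes and 229.5 to 400.2 CPM over the stimulated ones, and Hk1 is highest, at 43.6 CPM, in stimulated gamma delta T cells.

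Set against each other, the paralogues gave a higher Hk1 to Hk2 ratio in the stimulated library in every class. Because UMIs depend on how well each transcript is captured, only the change of this ratio is read, not its height. In all kept cells Hk1 made up 6.79% (exact binomial 95% interval 6.46 to 7.13) of the UMIs of both genes in the stimulated library and 1.76% (1.63 to 1.90) in the unstimulated library, and the ratio of Hk1 to Hk2 was 4.07 times as high. The ratio was 3.54 times as high in Ncr1+ cells, 4.14 times in Ccr6+ cells and 4.42 times in cells with neither marker. In gamma delta T cells Hk1 took 11.8% (9.41 to 14.5) and 4.09% (2.73 to 5.85) of these UMIs, a 3.14-fold change of the ratio. In alpha beta T cells it took 9.62% (6.20 to 14.1) and 7.03% (4.51 to 10.4), shares whose intervals overlap. Since the ratio is taken within a library, it does not depend on the scaling to the total. The summed level of both genes was 363 CPM stimulated and 642 CPM unstimulated, so the sum was lower in the stimulated library, as Hk2 was.

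**Figure D3:**
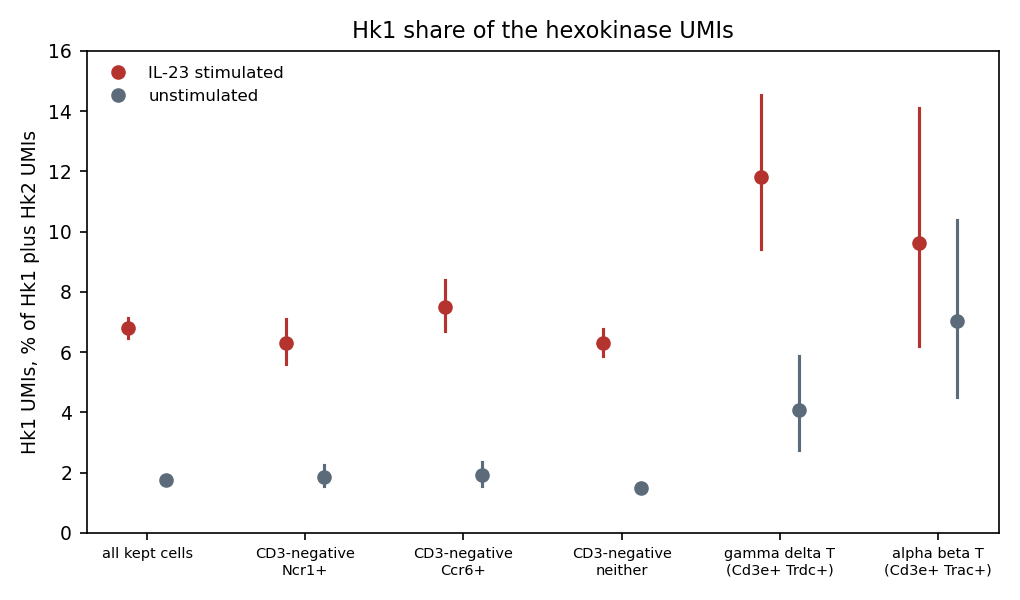
Hk1 UMIs as a percentage of the UMIs of Hk1 and Hk2 (vertical axis) in all kept cells and 5 classes, IL-23 stimulated in red to the left of unstimulated in grey, with exact binomial 95% intervals. The stimulated point is above the unstimulated point in each class, at 6.79% against 1.76% in all kept cells, and the intervals overlap in alpha beta T cells alone.

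Depth and mitochondrial share differ between the libraries, and both hexokinases were read within bins of each, bins that were chosen after the data had been seen. The log2 ratio of Hk2 was -0.65 in cells under 4000 UMIs, -1.001 from 4000 to 8000 UMIs and -0.87 above, and that of Hk1 was 0.79, 0.86 and 1.41. By mitochondrial share, under 2%, from 2 to 4% and above, Hk2 was at -0.88, -0.87 and -0.73 and Hk1 at 1.04, 1.21 and 1.03. In cells with no UMI of the heat shock genes Hspa1a and Hspa1b, Hk2 was at -0.91 and Hk1 at 1.17. The direction of each gene was thus the same in every bin, and the Hk1 ratio was larger in the deepest cells.

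The same contrast was read cell by cell at 3000 UMIs. A Hk1 UMI was found in 6.14% (5.64 to 6.67) of stimulated and 3.12% (2.79 to 3.48) of unstimulated cells, and as counted in 12.9% and 5.50%. A Hk2 UMI was found in 49.2% (48.2 to 50.3) of stimulated and 64.3% (63.4 to 65.2) of unstimulated cells, and as counted in 64.9% and 72.9%. Cells with at least 4 Hk2 UMIs made up 6.24% of stimulated and 17.9% of unstimulated cells, and among Ncr1+ cells 8.33% and 26.0%. The gap in Hk2 was therefore seen both in the share of cells with a UMI and in the UMIs per cell. Of gamma delta T cells 48.1% and 48.3% had a Hk2 UMI after thinning, and of alpha beta T cells 34.7% and 32.1%.

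Detection of both genes in one cell was close to the product of their separate shares at this depth. Both were detected in 3.09% of stimulated cells and 1.91% of unstimulated cells, and the product of the separate shares was 3.02% and 2.01%. Hk1 alone was found in 3.05% and 1.21%, and Hk2 alone in 46.1% and 62.4%. A UMI of neither was found in 47.7% and 34.5% of cells, which at 3000 UMIs does not show that such cells lack hexokinase transcripts. Among Ncr1+ cells the share with neither was 42.3% and 20.5%.

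**Figure D4:**
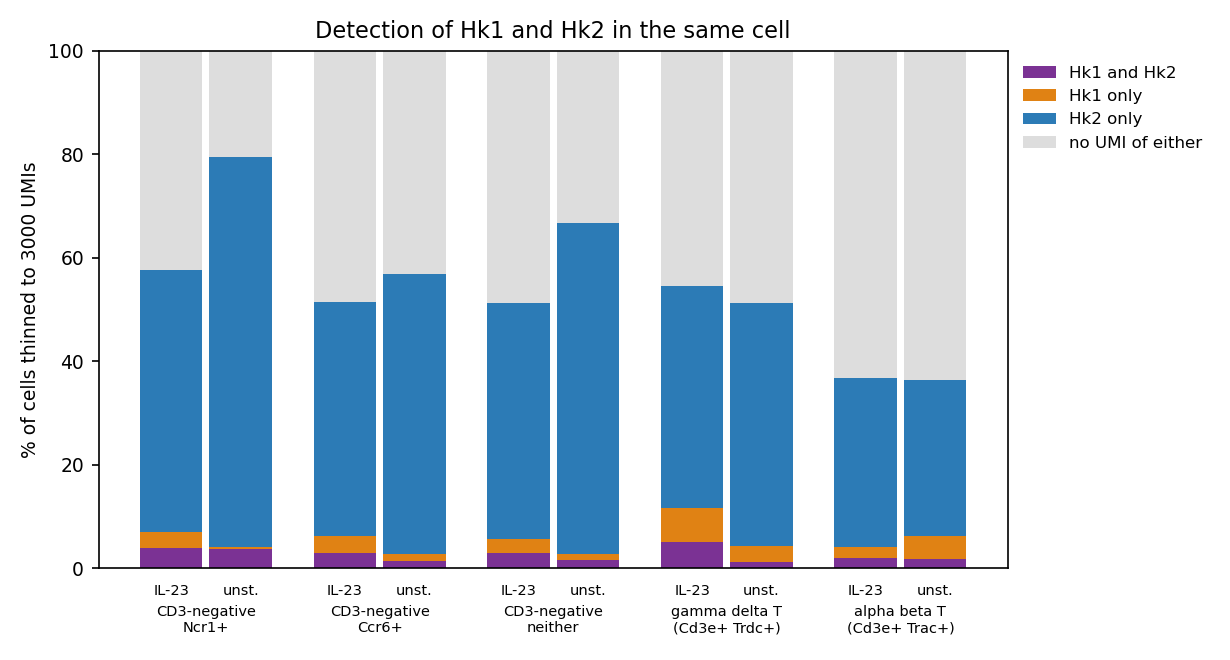
Share of cells, thinned to 3000 UMIs, with a UMI of both hexokinase genes, of Hk1 alone, of Hk2 alone or of neither (stacked, to 100%), by class, with the IL-23 stimulated library left of the unstimulated one (unst.). In Ncr1+ cells the part with neither is 42.3% stimulated and 20.5% unstimulated, and in gamma delta T cells it is 45.4% and 48.7%.

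Among other members of the family in the mouse, Hk3 was at 2.22 CPM stimulated and 2.17 CPM unstimulated, and Hkdc1 had 7 and 4 UMIs. Annotated transcripts of Hk1 and Hk2 share 0 stretches of 50 bases with each other or with any other gene. The annotation does place an antisense gene on each locus, Hk1os and Gm17034, and both are genes of the count tables in their own right. The counting of strand is not stated, so whether reads of these partners were also counted to the hexokinases is not known here. The same holds for antisense genes that overlap Aldoa, Hif1a, Ndrg1, Pfkfb3 and Pfkp.

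Pfkp and Pfkfb3 act at the committing step. Pfkp (ENSMUSG00000021196, GRCm38 chr13:6579768-6648777) encodes the platelet form of phosphofructokinase, and it was at 205 CPM (202 to 209) stimulated and 191 CPM (188 to 195) unstimulated, a log2 ratio of 0.10. Its sign turned with depth: the log2 ratio was 0.41 in cells under 4000 UMIs, -0.10 from 4000 to 8000 UMIs, where 6270 stimulated and 6904 unstimulated cells lay, and 0.24 above. It separated the classes more than the libraries. Ccr6+ cells had 129 CPM stimulated and 121 CPM unstimulated, and Ncr1+ cells had 289.5 and 255 CPM. Ccr6+ cells were thus 2.24-fold lower than Ncr1+ cells in the stimulated library and 2.12-fold lower in the unstimulated library. Gamma delta T cells, at 309.8 and 284 CPM, lay near Ncr1+ cells.

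Pfkfb3 (ENSMUSG00000026773, GRCm38 chr2:11471433-11554077) encodes the enzyme that makes fructose 2,6-bisphosphate, the activator of phosphofructokinase. It was at 80.7 CPM (78.5 to 83.0) stimulated and 62.0 CPM (60.0 to 64.1) unstimulated, a log2 ratio of 0.38. Its classes ran against those of Pfkp, since Ccr6+ cells, at 117 and 81.5 CPM, were above Ncr1+ cells, at 70.7 and 58.2 CPM, in both libraries. Gamma delta T cells had 27.0 CPM (47 UMIs) stimulated and 16.3 CPM (26 UMIs) unstimulated, and alpha beta T cells had 47.8 CPM (34.9 to 64.0, 45 UMIs) and 13.3 CPM (7.75 to 21.3, 17 UMIs). The 3.53-fold ratio of alpha beta T cells rests on these few UMIs, and the 1.64-fold ratio of gamma delta T cells was at a log2 of 0.11 without the 5% of cells with the most UMIs.

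Aldoa (ENSMUSG00000030695, GRCm38 chr7:126795234-126800751), the gene of the aldolase that splits the phosphorylated sugar, was the other member with a lower level in the stimulated library in all 5 classes. It had 322 CPM (318 to 327) stimulated and 387 CPM (382 to 392) unstimulated, a log2 ratio of -0.26, and the class ratios lay between -0.38 in Ncr1+ cells and -0.18 in Ccr6+ cells. None of these reached 1.5-fold. A second feature with the symbol Aldoa had 0 and 1 UMIs, and 94 of the 3158 stretches of 50 bases of Aldoa transcripts are shared with Aldoart1. Shared stretches were also found for Ero1l (71 of 5326), Ldha (27 of 3575), Pfkfb3 (29 of 7986) and Ndrg1 (6 of 7014). Those of Aldoa, Ero1l, Ldha and Ndrg1 lay in the last 500 bases of an annotated transcript, and those of Pfkfb3 did not. How reads of these stretches were counted is not stated.

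Pkm and Ldha make and use pyruvate. Pkm (ENSMUSG00000032294, GRCm38 chr9:59656368-59679375), the pyruvate kinase gene whose splice forms are not told apart by these counts, had 377 CPM (373 to 382) stimulated and 271 CPM (267 to 275) unstimulated, a log2 ratio of 0.48. Its class ratios lay between 0.40 in Ccr6+ cells and 0.62 in gamma delta T cells, where the levels were 482 and 312.5 CPM. Under TMM scaling the ratio of all kept cells, 0.595, was just past 1.5-fold.

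Ldha (ENSMUSG00000063229, GRCm38 chr7:46841475-46855627) encodes the lactate dehydrogenase subunit of glycolytic tissues. It had 354 CPM (349.6 to 359) stimulated and 203 CPM (199.8 to 207) unstimulated, a log2 ratio of 0.80. In CD3-negative cells the ratios were alike: Ncr1+ cells had 417 and 238 CPM (log2 ratio 0.81), Ccr6+ cells 280.8 and 162 CPM (0.79) and cells with neither marker 350.3 and 192 CPM (0.87). Unstimulated T cells had more of it than the CD3-negative classes, and the ratios were smaller, with 404 and 289.9 CPM in gamma delta T cells (0.48) and 466 and 408 CPM in alpha beta T cells (0.19). After thinning, 59.1% of stimulated and 39.9% of unstimulated cells had a Ldha UMI, and as counted 77.7% and 54.4%.

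Ero1l and Ndrg1 are known targets of HIF-1 outside the pathway itself. Ero1l (ENSMUSG00000021831, GRCm38 chr14:45283087-45318771) encodes the oxidase that drives disulfide bond formation in the endoplasmic reticulum. It had 268 CPM (264 to 272) stimulated and 147 CPM (144 to 151) unstimulated, a log2 ratio of 0.86. Ncr1+ cells were at 316 and 160.3 CPM (log2 ratio 0.98), cells with neither marker at 267 and 151 CPM (0.82), and Ccr6+ cells at 195 and 132 CPM, 1.48-fold higher and so just short of 1.5-fold. By mitochondrial share, the ratio of all kept cells was 0.55 in cells under 2%, 0.78 from 2 to 4% and 1.15 above, and the part of that share in the result was not tested.

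Ero1l had its widest class ratio in gamma delta T cells, with 449 CPM (418 to 481, 782 UMIs) stimulated and 133 CPM (116 to 153, 212 UMIs) unstimulated, 3.36-fold higher. Alpha beta T cells had 92.4 CPM (74.0 to 114) and 100.2 CPM (83.6 to 119), which do not differ beyond counting error. At 3000 UMIs, 10.6% of 216 stimulated gamma delta T cells held at least 4 Ero1l UMIs, against 0 of 230 unstimulated ones, which allows a share of up to 1.30% when a count of 0 is taken to allow 3 cells. Cells outside the 5 classes with Cd3e and no Trdc or Trac UMI (97 and 77 cells) had 409 and 97.0 CPM, and the 13 and 23 cells with both Trdc and Trac had 636 CPM (70 UMIs) and 122 CPM (23 UMIs). With these doubly marked cells counted in both T cell classes, the log2 ratio of alpha beta T cells was 0.54, against -0.11 without them.

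Ndrg1 (ENSMUSG00000005125, GRCm38 chr15:66929318-66969640), a stress-induced gene named for its regulation by N-Myc, was low throughout. It had 23.3 CPM (22.1 to 24.5) stimulated and 11.1 CPM (10.3 to 11.98) unstimulated, a log2 ratio of 1.07. The ratios of the CD3-negative classes lay between 1.10 in Ncr1+ cells and 1.19 in cells with neither marker. Ccr6+ cells had 12.7 and 5.70 CPM, 2.62-fold and 2.69-fold lower than Ncr1+ cells, at 33.2 and 15.4 CPM, in the stimulated and the unstimulated library. Gamma delta T cells had 27.5 CPM (48 UMIs) and 23.3 CPM (37 UMIs) and alpha beta T cells 37.2 CPM (35 UMIs) and 30.5 CPM (39 UMIs), with intervals that overlap between the libraries.

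Counted by class, the genes at least 1.5-fold higher were the same 5 in Ncr1+ cells (5.18% of all measured genes reached this size) and in cells with neither marker (4.09%), namely Hif1a, Hk1, Ldha, Ero1l and Ndrg1. In Ccr6+ cells they were 4 of these, without Ero1l (2.87%). Some of these counted as measured through the stimulated library alone and had to differ to count. They were Hk1 and Ndrg1 in cells with neither marker and Ndrg1 in Ccr6+ cells. Hk2 was the 1 gene at least 1.5-fold lower in each CD3-negative class. This size was reached by 7.26% of measured genes in Ncr1+ cells, 4.32% in Ccr6+ cells and 3.89% in cells with neither marker. In gamma delta T cells 5 genes were higher, Hif1a, Hk1, Pfkfb3, Pkm and Ero1l, beside 8.01% of all measured genes, and 0 were lower, beside 10.6%. In alpha beta T cells 2 were higher, Hif1a and Pfkfb3, beside 7.83%, and 0 were lower, beside 12.2%. The median log2 ratio of the 10 genes was 0.59 in Ncr1+ cells, 0.55 in Ccr6+ cells, 0.61 in cells with neither marker, 0.55 in gamma delta T cells and 0.24 in alpha beta T cells, and that of all measured genes lay between -0.12 and -0.06. TMM scaling moved the split of all measured genes at least 1.5-fold higher or lower, to 5.09% and 2.1% in all kept cells, 6.85% and 3.9% in Ncr1+ cells, 3.91% and 2.31% in Ccr6+ cells, 4.85% and 2.53% in cells with neither marker, 9.33% and 8.73% in gamma delta T cells and 9.52% and 9.69% in alpha beta T cells. With it 6 of the 10 genes were higher and 0 lower in Ccr6+ cells, where Pfkfb3 and Ero1l were added at log2 ratios of 0.64 and 0.68.

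Between the CD3-negative subsets, Ccr6+ cells were at least 1.5-fold lower than Ncr1+ cells in 3 of the 10 genes in the stimulated library, Pfkp, Ero1l and Ndrg1, where 9.45% of measured genes reached this size. They were lower in 4 in the unstimulated library, Hk1, Hk2, Pfkp and Ndrg1, where 9.49% did. Pfkfb3 was the 1 gene at least 1.5-fold higher in Ccr6+ cells in the stimulated library (12.8% of measured genes), and 0 were in the unstimulated library (13.9%). Only Pfkp and Ndrg1 of the 10 passed this size in both libraries. In the unstimulated library Ndrg1 reached 10 CPM in Ncr1+ cells alone (15.4 CPM, against 5.70 CPM in Ccr6+ cells) and had to differ to count.

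The wider pathway was read from a list that holds 7 of the 10 genes. Of 37 genes of glucose uptake, glycolysis and lactate export, 19 were measured in all kept cells. Hk1 and Ldha were at least 1.5-fold higher, beside 4% of all measured genes, and Hk2 was at least 1.5-fold lower, beside 3.53%. All of these are among the 10 genes described here, and 16 genes of the list lay between. The median log2 ratio of the list was 0.05, against -0.11 for all measured genes. Gapdh, the dehydrogenase at the middle of the pathway and the gene of the list with the most UMIs, had 736 CPM stimulated and 705 CPM unstimulated (log2 ratio 0.06). Other genes named after their values had been seen were the transporter genes Slc2a3 (24.8 and 17.6 CPM, 0.49) and Slc2a6 (56.3 and 81.1 CPM, -0.53) and the enolase gene Eno1 (69.7 and 54.5 CPM, 0.35). The lactate exporter gene Slc16a3 was too low to count as measured, at 1.76 CPM stimulated and 4.28 CPM unstimulated.

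**Figure D5:**
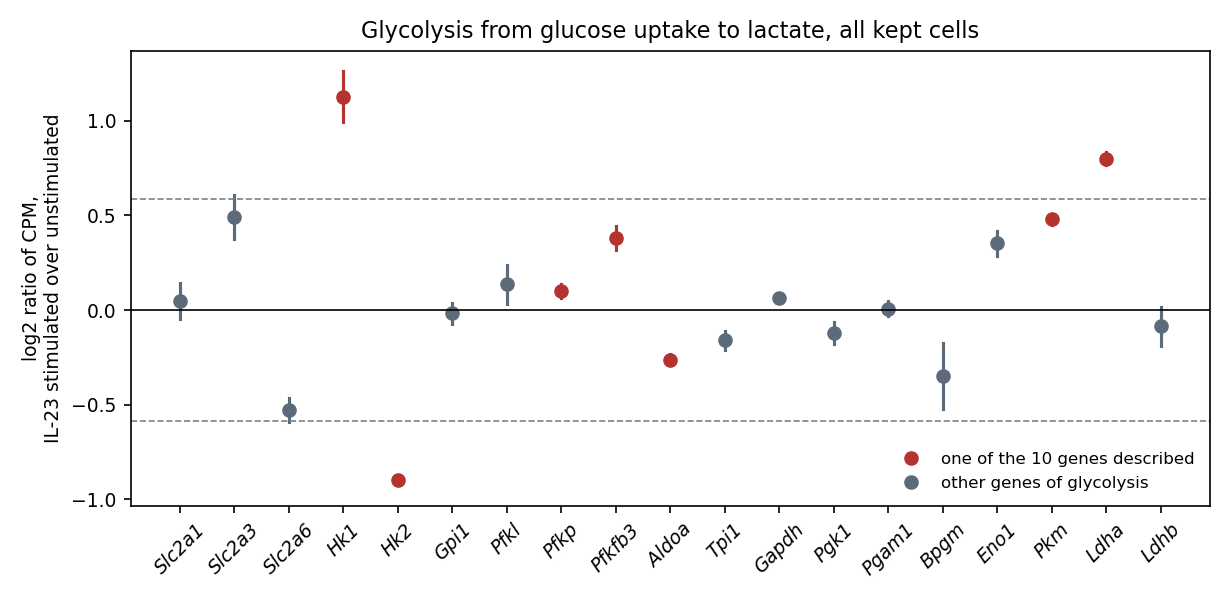
Log2 ratio of CPM, IL-23 stimulated over unstimulated (vertical axis), in all kept cells for the 19 measured genes of the glycolysis list, in the order of the pathway from glucose transporters to lactate dehydrogenase (horizontal axis). Red points are among the 10 genes described, grey points are the rest, bars are 95% intervals of counting error and dashed lines mark 1.5-fold; Hk1, at 1.13, and Hk2, at -0.90, lie farthest from 0.

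Of 28 genes of the HIF factors, their regulators and known targets, 19 were measured. At least 1.5-fold higher were Hif1a, Ero1l, Ndrg1 and Adm, beside 4% of all measured genes, and lower was Mxi1, beside 3.53%. Adm is the gene of the vasodilator peptide adrenomedullin, and Mxi1 encodes a repressor that opposes Myc. Adm had 17.6 CPM stimulated and 8.44 CPM unstimulated (log2 ratio 1.06), and Mxi1 had 38.7 and 58.3 CPM (-0.59). Adm reached the CPM asked of a measured gene in the stimulated library alone and had to differ to count. Hif1a, Ero1l and Ndrg1 are among the genes described here, which were chosen with earlier results of these data known. Bhlhe40, the circadian repressor with the most UMIs of the list, had 533 and 549 CPM (-0.04). The median of the list, -0.09, and its mean, 0.07, differ in sign. Known targets such as Vegfa (80.9 and 97.7 CPM, -0.27), Egln3 (41.5 and 42.8 CPM, -0.04) and P4ha1 (33.9 and 42.8 CPM, -0.34) were named after their values had been seen, and the counting interval of Egln3, -0.12 to 0.04, spans 0. Under TMM scaling the median of the hypoxia list was 0.0254.

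None of the 15 measured genes of pyruvate entry to mitochondria and of the pentose phosphate pathway, out of 21, reached 1.5-fold either way in all kept cells, beside 4% of all measured genes higher and 3.53% lower. Their median log2 ratio was -0.16, beside -0.11 for all measured genes. The genes of this list with the most UMIs were Mpc1, of the mitochondrial pyruvate carrier (165 CPM stimulated and 185 CPM unstimulated, -0.16), Pdhb, of pyruvate dehydrogenase (91.4 and 113 CPM, -0.30), and Mpc2 (89.5 and 92.1 CPM, -0.04).

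Genes with a pattern near that of each hexokinase were ranked by Euclidean distance over the log2 ratios of the 5 classes, among the 2585 genes that reached 50 CPM in every class in at least 1 library. Nearest to Hk2 were Fam110a (distance 0.28), Gata3 (0.43), Nr4a1 (0.46), Mxi1 (0.50) and Wdr61 (0.51). Fam110a had log2 ratios of -1.37 in Ncr1+, -0.64 in Ccr6+, -0.84 in neither, -0.42 in gamma delta T and -0.12 in alpha beta T cells. Nearest to Hk1, at a greater distance, were Stk17b (0.66), Zeb2 (0.69), Mfsd6 (0.69), Serpinb1a (0.72) and Ctsb (0.74). These distances describe 5 classes of the same libraries. Hk1 itself, at 24.6 and 11.3 CPM in all kept cells, was below the 50 CPM asked of the compared genes. Its T cell ratios rest on 23 to 76 UMIs per library, and whether its greater distances exceed counting error was not tested.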

How the data were processed

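RNA of single cells was counted in 2 libraries of 10x Genomics droplets. The deposited values are whole-number UMI counts per gene and barcode, with no normalization by the authors. Cell Ranger 3.1.0 and the build mm10 are named per the submitters' processing notes, and cellranger 6.0.0 per the file headers, with nothing in the sources to settle which made the counts. The handling of strand and the cell calling are not stated there.

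A barcode was kept if it had 500 genes or more and no more than 10% of its UMIs were mitochondrial, which left 9251 of 10440 in the stimulated library (61359895 UMIs) and 10790 of 11096 in the unstimulated library (58148889 UMIs). A barcode sequence occurred in both libraries 29 times. Doublets were not called, and the cells above the 95th percentile of UMIs were left out as an alternative. CPM were taken from the UMI sums of each class in each library, and log2 ratios had 0.5 UMI added to each sum. Intervals are exact Poisson for CPM and exact binomial (Clopper-Pearson) for shares, at 95%, from counting error alone. Shares used cells thinned without replacement to 3000 UMIs, with a random seed of 7 plus the depth plus the index of the library. The summing and ratios were tested on simulated data. Python 3.11.15, numpy 2.4.6, scipy 1.17.1, pandas 2.3.3 and matplotlib 3.10.9 were used.

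Positions are from GENCODE on GRCm38, matched by gene identifier, and upstream sequence is from RefSeq on GRCm38.p6. The protein sequences of the hexokinases were not analysed here. The text names the 10 genes in every class, any other measured gene of the 3 lists past 1.5-fold in all kept cells, the 3 genes of each list with the most UMIs, and the 5 genes nearest to each hexokinase. The genes and the lists were chosen with earlier results of these data known.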

Additional observations from a re-analysis of the deposited data

Results flagged for a closer look

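For 2 genes the classes lay on both sides of 0, and neither difference between classes was tested. The log2 ratio of Ero1l, stimulated over unstimulated, was 1.75 in gamma delta T cells, 0.98 in Ncr1+ cells, 0.82 in cells with neither marker and 0.56 in Ccr6+ cells, but -0.11 in alpha beta T cells, where its counting interval ran from -0.53 to 0.29. That of Pfkp was 0.18 in Ncr1+ cells, 0.12 in gamma delta T cells, 0.10 in Ccr6+ cells and 0.078 in cells with neither marker, but -0.23 in alpha beta T cells, where its interval ran from -0.54 to 0.07. Each class is 1 value per library, and both alpha beta T cell intervals span 0.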

How the results depend on the processing

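Of 680 ratios of a member in a class under an alternative, 673 kept their sign and 7 did not, and of the 348 past 1.5-fold as reported 334 remained so. The 7 were Hk2 in alpha beta T cells under 4 alternatives, Ero1l and Ndrg1 in that class under 1 each, and Pfkp in all kept cells with 4000 to 8000 UMIs. A further 13 ratios passed 1.5-fold under an alternative alone, and 119 of the 680 moved beyond their counting interval. The number of members at least 1.5-fold higher was 1 in alpha beta T cells with classes from 2 marker UMIs (beside 7.22% of all measured genes) and with the mean of per-cell CPM (8.69%), which also gave 3 in gamma delta T cells (8.95%). In all kept cells it was 3 under 2% mitochondrial UMIs (4.81%) and 6 over 4% (4.31%), alternatives chosen after seeing the data. The number at least 1.5-fold lower in Ccr6+ cells was 0 with classes from 2 marker UMIs (8.09%), under TMM (2.31%) and under median-of-ratios scaling (2.07%). At a size of 2-fold, the members higher were 2 in all kept cells (beside 1.92% of all measured genes), 1 in Ncr1+ cells (2.58%), 2 in Ccr6+ cells (1.44%), 2 in cells with neither marker (2.01%), 2 in gamma delta T cells (2.83%) and 1 in alpha beta T cells (2.33%), and the members lower were 0 in all kept cells (0.61%), in Ccr6+ cells (0.492%) and in cells with neither marker (0.66%). Among the members 2-fold higher, some reached 10 CPM in the stimulated library alone and had to differ to count. They were Hk1 and Ndrg1 in cells with neither marker and Ndrg1 in Ccr6+ cells. The log2 change of the Hk1 to Hk2 ratio in Ccr6+ cells was 1.69 with classes from 2 marker UMIs. In all kept cells it was 1.44 under 4000 UMIs, 1.86 from 4000 to 8000, 2.28 above 8000 and 1.77 over 4% mitochondrial UMIs, bins chosen after seeing the data. Under TMM and then median-of-ratios scaling, the median log2 ratio was 0.16 and 0.15 in the glycolysis list, 0.0254 and 0.0128 in the hypoxia list and -0.0484 and -0.0609 in the pyruvate and pentose list, and the glycolysis list gave -0.10 with no filter on low values. The share of cells with an Aldoa UMI, lower in the stimulated library after thinning, was higher by 0.37 points in all kept cells and 3.37 points in Ccr6+ cells as counted. The cause of each of these was not tested, beyond the smaller size or fewer cells that an alternative sets by its own construction. No paired analysis was possible because each group is 1 library and the labels give no replicate numbers. In the T cell classes, which hold 99 to 232 cells, the counts limit the precision: Hk1 rests on 23 to 76 UMIs and Pfkfb3 on 17 to 47.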
